A study of Mus musculus with 2 samples.

Results

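The genes described here are 10 genes through which macrophages are known to take up, store and export lipid: Apoe, Apoc2, Abca1, Abcg1, Nr1h3, Pltp, Lpl, Lipa, Plin2 and Pparg. They were chosen by gene symbol, and every probe set annotated with exactly 1 of these symbols was taken, which gave 17 of the 45037 probe sets other than controls and 10 of 18193 genes. A probe set is a group of short probes for a transcript, and each has 1 signal on each array. The samples were 2 islet grafts taken 6 hours after transplantation, and RNA of each was measured on 1 MOE430 2.0 array. The first was the graft from a hyperglycemic male recipient heterozygous for the Akita mutation, a missense mutation of Ins2 that causes insulin deficiency. The second was the graft from a normoglycemic male WT C57BL/6 recipient. Both recipients had received 50 islets of WT C57BL/6 donors under the left kidney capsule, and neither is labelled as treated with insulin. The labels do not give the age of the recipients or the number of mice behind a sample.

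With 1 array per condition and no replicates, differences could not be tested, and no error between mice can be given. Genotype and blood glucose both differed between the recipients, and effects of these cannot be told apart. The arrays were made from whole grafts with kidney tissue, so for any gene more cells of a type and more RNA per cell cannot be told apart. These samples are called the Akita graft and the WT graft below, and all ratios are of the Akita graft over the WT graft.

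A macrophage takes up lipoproteins and dying cells and breaks down their cholesterol esters in the lysosome with the acid lipase that Lipa encodes. Free cholesterol is stored again in lipid droplets, which are coated by perilipin 2 (Plin2), or leaves the cell through the transporters ABCA1 and ABCG1. Apolipoprotein E (Apoe) accepts exported lipid, and the phospholipid transfer protein PLTP (Pltp) moves phospholipid between lipoprotein particles. Lipoprotein lipase (Lpl) releases fatty acids from circulating triglyceride with apolipoprotein C-II (Apoc2) as its cofactor. The nuclear receptor LXR alpha (Nr1h3) senses oxidized cholesterol and is known to induce Abca1, Abcg1, Apoe and Pltp, and PPAR gamma (Pparg) is a fatty acid sensor of macrophages and adipocytes. None of these genes is restricted to macrophages, and several are also expressed in kidney tubules, islets, endothelium or fat.

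The promoters of the 3 genes with the highest ratios, Apoe, Apoc2 and Pltp, and of Abca1, the cholesterol exporter, are shown for the letters that LXR and related receptors bind. The sequences are from RefSeq (GRCm38.p6), each with the 250 bases before and the 50 bases after an annotated start site, read 5′ to 3′ on the strand of the gene. Capitals mark the receptor core GGTCA or its reverse complement TGACC, and in Abca1 the whole repeat described below.
Apoe, chr7:19699139-19699438, minus strand: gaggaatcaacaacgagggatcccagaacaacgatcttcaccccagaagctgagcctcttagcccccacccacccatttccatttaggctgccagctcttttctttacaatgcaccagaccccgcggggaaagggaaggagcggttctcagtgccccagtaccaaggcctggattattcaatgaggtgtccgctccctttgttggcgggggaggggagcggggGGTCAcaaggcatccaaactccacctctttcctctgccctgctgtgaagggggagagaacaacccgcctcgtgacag
Apoc2, chr7:19677892-19678191, minus strand: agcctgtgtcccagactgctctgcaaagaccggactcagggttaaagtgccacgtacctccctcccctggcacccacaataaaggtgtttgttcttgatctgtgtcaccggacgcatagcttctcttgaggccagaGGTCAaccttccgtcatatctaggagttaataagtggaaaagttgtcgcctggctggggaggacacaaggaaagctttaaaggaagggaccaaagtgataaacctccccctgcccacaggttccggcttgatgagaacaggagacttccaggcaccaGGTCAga
Pltp, chr2:164857659-164857958, minus strand: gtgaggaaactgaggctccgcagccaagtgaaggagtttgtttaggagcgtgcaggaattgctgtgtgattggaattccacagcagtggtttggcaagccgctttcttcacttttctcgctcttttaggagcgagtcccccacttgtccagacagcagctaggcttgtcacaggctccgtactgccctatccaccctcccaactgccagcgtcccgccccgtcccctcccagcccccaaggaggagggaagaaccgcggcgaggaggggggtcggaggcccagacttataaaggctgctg
Abca1, chr4:53159846-53160145, minus strand: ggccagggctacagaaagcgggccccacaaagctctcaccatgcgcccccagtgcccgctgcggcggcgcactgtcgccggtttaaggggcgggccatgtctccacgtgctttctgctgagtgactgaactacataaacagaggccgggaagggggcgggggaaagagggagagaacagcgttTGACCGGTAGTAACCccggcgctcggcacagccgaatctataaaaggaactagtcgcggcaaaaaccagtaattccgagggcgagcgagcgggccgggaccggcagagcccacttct

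The Abca1 promoter held a repeat of GGTTA and GGTCA with 5 bases of any kind between them, searched on both strands, from base -67 relative to the start site. Repeats of this kind are known as LXR response elements, and this repeat overlaps the only GGTCA core in that window. It was found in 16 of 32851 promoter windows of the same length (0.0487%) and in 1 of the 13 windows of these genes. The GGTCA core by itself was found in 40.5% of all windows and in 7 of the 13. Apoe held it at -27 and Apoc2 at -114 and 44, whereas the Pltp window held none. Windows were given for 8 of the 10 genes, and Apoe has 3, of which 1 is printed. Only that 1 of the 3 Apoe windows held the core. A match is a description of letters and does not show that a receptor bound there.

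The genes did not go one way between the grafts. Apoe, Apoc2 and Pltp were over 2-fold higher in the Akita graft. The transporters Abca1 and Abcg1 were higher by less than 2-fold, Lpl, Plin2 and Nr1h3 were lower by less than 2-fold, and Lipa was near equal. Pparg had a low signal in both grafts.

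Signals under the array median, 91.5 for the Akita graft and 82.9 for the WT graft, were taken as low. This median is called the floor, and a gene with 1 or both signals at or over it counts as measured. For a gene with several probe sets, counts use the brightest. Measured genes numbered 9 of 10. Ratios over 2 were found in 3 of the 9 and a ratio over 5 in 1, and 0 genes were over 2-fold lower. Over all 12538 measured genes, 7.56% were over 2-fold higher, 2.42% over 5-fold higher and 5.54% over 2-fold lower. The gene over 5-fold higher was Apoc2, which passed the floor only through the Akita graft and had to differ for that reason. Among the 8 genes that reached the floor in both grafts, 2 had ratios over 2 and 0 were over 2-fold lower, against 3.53% and 1.89% of all 10816 such genes. The median log2 ratio of the 9 measured genes was 0.34 (1.27-fold), beside -0.06 over all measured genes, and 0.15 for the 8 that reached the floor in both.

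**Figure D1:**
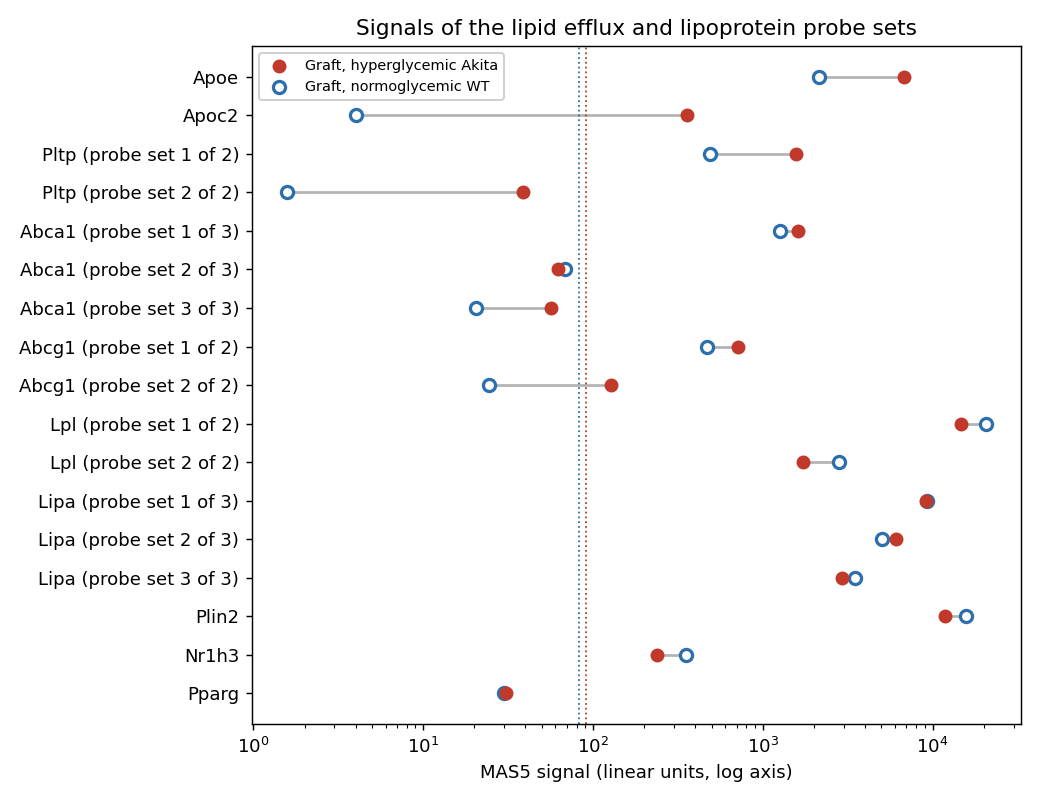
MAS5 signal (x axis, log scale) of each of the 17 probe sets in the Akita graft (filled red) and in the WT graft (open blue), with dotted lines at the array medians. Apoe and the brighter Pltp probe set lie far to the right in the Akita graft with both signals above the medians, and Apoc2 crosses from below to above them, whereas the points of Lipa nearly coincide.

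How far a ratio scatters on these arrays was described with genes that have several probe sets, from the difference between the ratios of the brightest 2. At a mean signal of 16 to 64, 1 SD of the ratio was 2.90-fold, at 256 to 1024 it was 1.26-fold, at 1024 to 4096 it was 1.17-fold and over 4096 it was 1.15-fold. This is a spread within the arrays and not an error between mice. It also holds real differences between transcripts of a gene.

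Among the lipoprotein genes, Apoe had a signal of 6755 in the Akita graft, against 2149 in the WT graft. The ratio was 3.14 (log2 ratio 1.65), which is larger than the 1.17-fold spread at that signal. Apoe has 1 probe set on the array, so no other measurement of it was at hand.

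Pltp had a signal of 1568 against 490 in the WT graft on its brighter probe set, a ratio of 3.20 (log2 ratio 1.68), beside a spread of 1.26-fold. That probe set is of a type that can bind several transcripts. The other Pltp probe set was low in both grafts, with signals of 38.9 in the Akita graft and 1.57 in the WT graft, and no fold is given for it. The ratio of Pltp therefore rests on the brighter probe set.

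Apoc2 had a signal of 358 in the Akita graft, against 4.04 in the WT graft. With the low signal raised to the array median the difference was at least 4.32-fold. The signals as deposited gave a ratio of 88.7, which depends on a value near the bottom of the scale of the array and is not a measured fold. The gene thus had a signal above the floor in the Akita graft only.

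The cholesterol transporters differed less. Abca1 had a signal of 1603 against 1264 in the WT graft on its brightest probe set (1.27-fold, log2 ratio 0.34), beside a spread of 1.17-fold. Its other 2 probe sets were low in both grafts, at 62.5 and 56.5 in the Akita graft and 68.0 and 20.5 in the WT graft. Abcg1, which exports cholesterol to high-density lipoprotein, had a signal of 710 against 466 (1.52-fold, log2 ratio 0.61). Its second probe set had a signal of 127 in the Akita graft and 24.6, below the floor, in the WT graft, at least 1.53-fold. That probe set passed the floor only through the Akita graft and had to be higher for that reason. The direction of Abcg1 therefore rests on its brightest probe set, which was higher in the Akita graft, as was that of Abca1.

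Lpl and Plin2 were lower in the Akita graft. Lpl had a signal of 14799 in the Akita graft, against 20517 in the WT graft (a ratio of 0.72, log2 ratio -0.47), and its second probe set had 1718 against 2810 (0.61, log2 ratio -0.71). The probe sets of Lpl were both lower by more than 1 SD of the spread, which was 1.15-fold and 1.17-fold at their signals. Plin2 had a signal of 11853 against 15712 (0.75, log2 ratio -0.41), also beyond the spread of 1.15-fold.

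Lipa had signals of 9088, 6072 and 2940 on its 3 probe sets in the Akita graft, against 9321, 5061 and 3481 in the WT graft. The ratios were 0.98, 1.20 and 0.84, on both sides of equality, so no direction is given for Lipa. All 3 probe sets were far above the floor in both grafts, and the ratios of the dimmer ones were beyond 1 SD of the spread in opposite directions.

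The nuclear receptors come last. Nr1h3 had a signal of 237 in the Akita graft, against 353 in the WT graft (0.67, log2 ratio -0.58), beside a spread of 1.26-fold. Of the genes that its product is known to induce, Apoe and Pltp were over 2-fold higher in the Akita graft. Abca1 and Abcg1 were higher by less than 2-fold on their brightest probe sets. The part of LXR alpha in these ratios was not tested. Pparg had signals of 30.8 and 29.9 in the Akita and the WT graft, both below the floor, so its level was not measurable with this probe set.

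**Figure D2:**
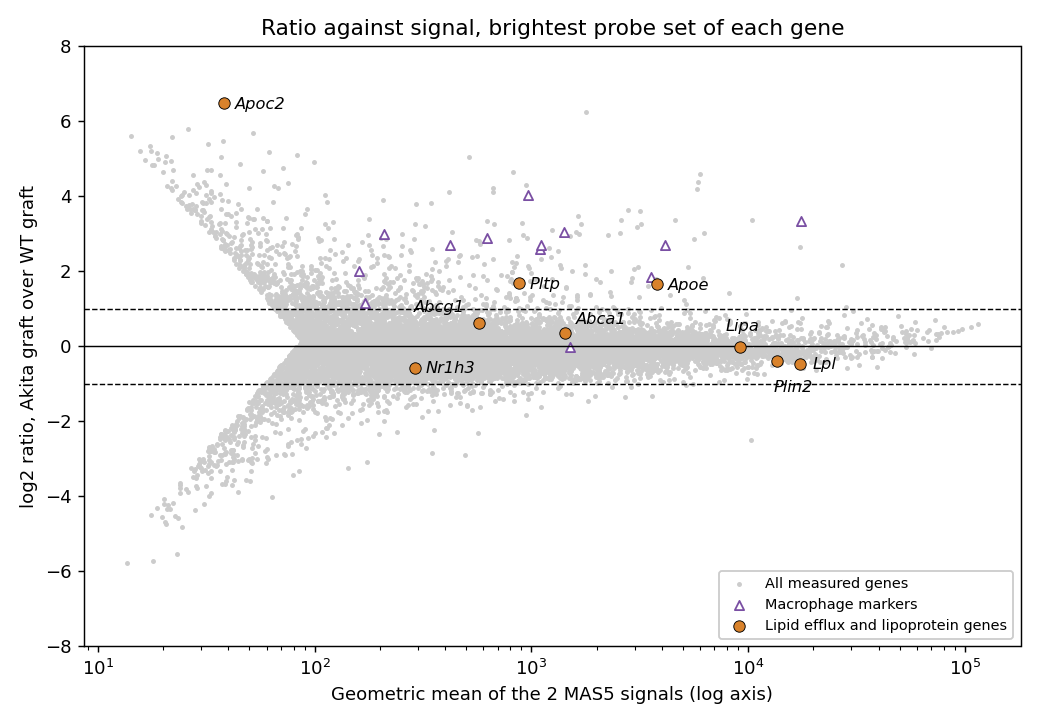
Log2 ratio of the Akita graft over the WT graft (y axis) against the geometric mean of both signals (x axis, log scale), 1 grey point per measured gene, with dashed lines at 2-fold. Apoe, Pltp and Apoc2 (orange circles) lie above the upper line, with Apoc2 among low signals where ratios fan out, and the other 6 measured genes lie between the lines, whereas 12 of 13 measured macrophage markers (purple triangles) lie above.

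Macrophage markers were set beside these genes, since the genes were grouped as genes of macrophages. Of 13 measured macrophage markers, 12 were over 2-fold higher in the Akita graft, with a median log2 ratio of 2.69 (6.46-fold), and with both signals at the floor 10 of 11. The summed signal of all 14 markers on the array, Aif1 included, was 92162 in the Akita graft and 12887 in the WT graft. Lyz2, the lysozyme gene of myeloid cells, reached 55987 in the Akita graft and 5539 in the WT graft, and Adgre1, which encodes the macrophage antigen F4/80, 2673 against 447. Mertk, a receptor for dying cells, was the exception with 1497 against 1521, and Aif1 was below the floor in both. Of 10 markers of peritoneal macrophages, all 10 were over 2-fold higher, such as Alox15, a lipoxygenase, at 2936 against 90.0. With both signals at the floor it was 9 of 9, beside 3.53% of all such genes. The other marker passed the floor only through the Akita graft and had to be higher for that reason. The marker lists were written with earlier results of these data known, so these counts are no independent check. The log2 ratios of the 8 lipid genes with both signals at the floor were all below the median of the macrophage markers, and Apoc2, with only a bound, was not placed. The part of macrophage number in the values of Apoe, Apoc2 and Pltp was not tested.

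Other cell types are known to express Lpl, Plin2 and Pparg, and their markers went different ways. All 7 measured beta cell markers differed by no more than 2-fold on their brightest probe sets, as did all 8 proximal tubule markers. The median log2 ratio of the beta cell markers was -0.19, but 0.36 with the median over all probe sets of each gene, and their summed signal was 183785 in the Akita graft and 138493 in the WT graft, so no direction is given. The median of the proximal tubule markers was -0.07. The 7 markers of the distal nephron and collecting duct had a median log2 ratio of -0.57, with 1 of 7 over 2-fold lower, and the 6 measured markers of endothelium, where lipoprotein lipase acts, -0.81. With both signals at the floor, 0 of 4 endothelial markers were over 2-fold lower and the median was -0.57. The other 2 measured, Pecam1 and Tek, were below the floor in the Akita graft, at 12.5 and 80.2, against 86.7 and 331 in the WT graft. The summed signal of the 8 endothelial markers was 1631 in the Akita graft and 2753 in the WT graft. Of 6 adipocyte markers on the array, 4 were measured, and the summed signal of the 6 was 32222 in the Akita graft and 52684 in the WT graft, most of it from Car3 and Pck1. Adipoq, which encodes adiponectin, had signals of 105 in the Akita graft and 31.7 in the WT graft, at least 1.27-fold. Adipoq passed the floor only through the Akita graft and had to be higher for that reason. Lep, which encodes leptin, was below the floor in both with 14.1 and 4.86. Car3, a carbonic anhydrase abundant in fat, had a signal of 4338 against 24755, and Pck1, which kidney also expresses, was near equal at 27551 and 27874. Of 8 neutrophil markers on the array, 3 were below the floor in both grafts, and 4 of the 5 measured were over 2-fold higher. Of 5 mesothelium markers on the array, 4 were below the floor in both grafts, and the 1 measured, Krt19, had 160 against 92.4. Of 5 acinar markers on the array, 3 were below the floor in both grafts. Of the 2 measured, Cela3b had 288 against 124 and Cela1 14624 against 18162, so the acinar list did not go one way. The part of these cell types in the lipid genes was not tested.

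The other genes of the pathway were described from 7 lists. Of 88 genes, 77 had a probe set with that 1 symbol, and 65 were measured. Over 2-fold higher were 8 of the 65 and over 2-fold lower 2, beside the 7.56% and 5.54% of all measured genes given above, with a median log2 ratio of -0.04. Where both grafts reached the floor, 5 of 58 had ratios over 2 and 0 were over 2-fold lower. The shares of all such genes were 3.53% and 1.89%. The counts of each list below stand beside the same shares.

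Among the other apolipoproteins, of 8 measured genes 2 had a ratio over 2 and 1 a ratio that was over 2-fold lower as deposited (median log2 ratio 0.16). The lower one was Lcat, an enzyme that esterifies cholesterol on lipoproteins, at 43.2, below the floor, in the Akita graft and 130 in the WT graft, at least 1.43-fold lower. Apob, the structural protein of low-density lipoprotein, had a signal of 13224 in the Akita graft, against 4991 in the WT graft (2.65-fold). Apoc1, an inhibitor of lipoprotein clearance, had 222 against 65.8, at least 2.67-fold with the low signal raised to the floor. Clu, which encodes clusterin, and Apom, a carrier of sphingosine-1-phosphate, differed by less, with 22179 against 17192 and 10254 against 8562.

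Of 8 measured lipoprotein receptor genes, 1 was over 2-fold higher and 0 over 2-fold lower. This was Lrp1, a receptor for apolipoprotein E, at 403 against 191 in the WT graft (2.11-fold). Scarb1, the receptor of high-density lipoprotein, had 200 against 131 (1.52-fold), and Lrp2, which encodes megalin of the proximal tubule, was near equal at 13632 and 12990.

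All 8 measured genes of other lipases and their regulators had a ratio below 1, with a median log2 ratio of -0.54, though only Lipg was over 2-fold lower and its signal in the Akita graft was below the floor. Gpihbp1, which anchors lipoprotein lipase on endothelium, had 326 against 531 in the WT graft (0.61). Abhd5, a coactivator of triglyceride lipase, had 1160 against 2112 (0.55), and Lipe, hormone-sensitive lipase, 136 against 228 (0.60). Angptl4, an inhibitor of lipoprotein lipase, was near equal at 3792 and 3911. The side of 0 on which the median of this list fell was kept under 10 of 11 alternatives, but its size was not. The median was -0.37 with both signals at the floor and -0.03 with signals raised to the 75th percentile. With the median over all probe sets of each gene it was 0.005.

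Lipid droplet and fatty acid binding genes went both ways, with 3 of 12 measured genes over 2-fold higher and 0 over 2-fold lower. With both signals at the floor, 2 of 11 had ratios over 2. The other was Cidea, a droplet protein, at 94.9 against 40.6, below the floor in the WT graft, which gives a bound of at least 1.15-fold. Hilpda, a droplet protein known to be induced by hypoxia, had a signal of 567 in the Akita graft, against 171 in the WT graft (3.31-fold). Fabp5, a fatty acid binding protein of macrophages and epithelia, had 2189 against 890 (2.46-fold), and Fabp4, the form of fat, endothelium and macrophages, 6965 against 4145 (1.68-fold). Plin5, a perilipin of oxidative tissues, had 277 against 535 (0.52), the lowest ratio of this list and on the same side as Plin2.

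Of 11 lysosomal and sterol transport genes, all measured, 1 was over 2-fold higher and 0 over 2-fold lower. Npc1, which moves cholesterol out of the lysosome after the step of Lipa, had 511 against 159 in the WT graft (3.21-fold), whereas Lamp1 and Lamp2, membrane proteins of the lysosome, were near equal at 26972 and 26721 in the Akita graft and 27882 and 26737 in the WT graft. Stard4, a carrier of cholesterol in the cytosol, had 918 against 1439 (0.64).

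Of 12 measured nuclear receptors and cofactors, Rxrg was over 2-fold higher, with only 101 in the Akita graft above the floor (at least 1.22-fold), and 0 were over 2-fold lower. Rxra, a partner of LXR and PPAR, had 618 against 1009 in the WT graft (0.61), and Rxrb, another partner, 1167 against 696 (1.68-fold). Ppara, the fatty acid receptor of oxidative tissues, had 3453 against 2799 (1.23-fold). All 6 measured lipid ABC transporters other than Abca1 and Abcg1 differed by no more than 2-fold, such as Abcg2, at 14391 and 14653.

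**Figure D3:**
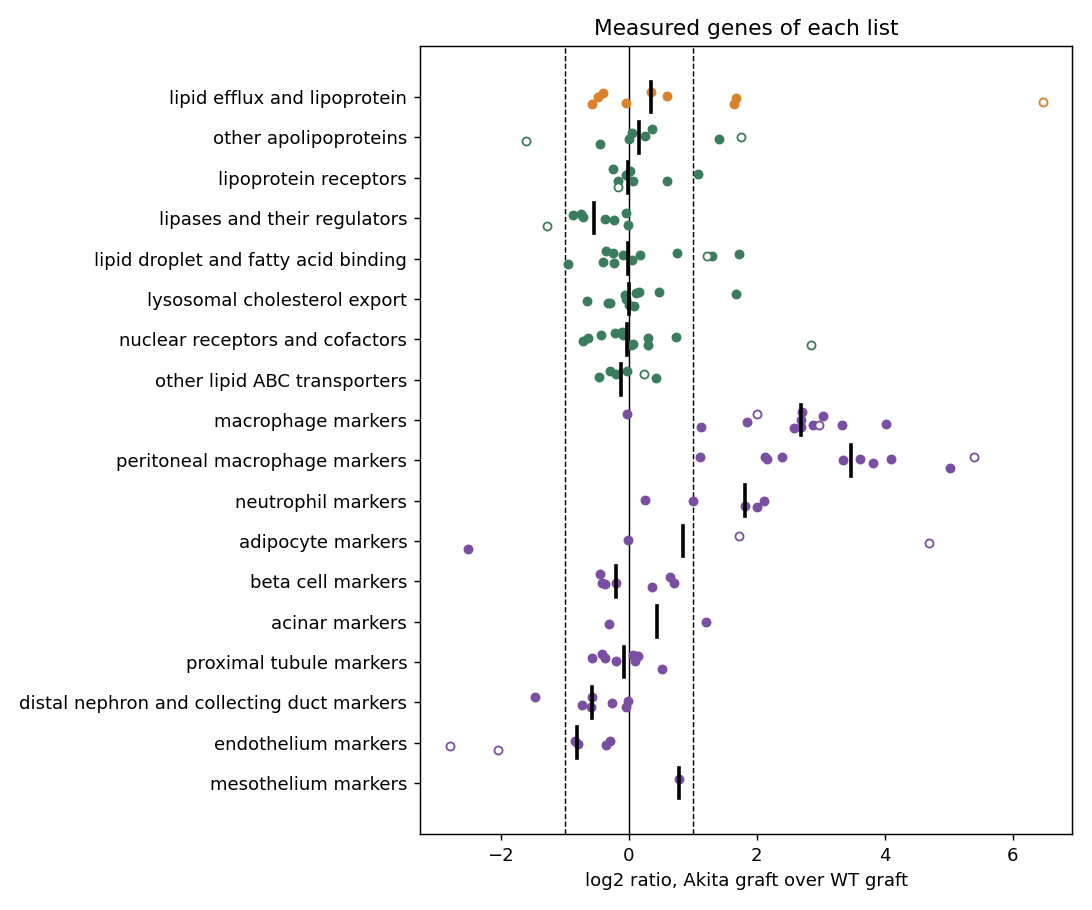
Log2 ratio of the Akita graft over the WT graft, 1 point per measured gene, for the lipid efflux and lipoprotein genes (orange), 7 pathway lists (green) and 10 marker lists (purple). Filled points reach the floor in both grafts and open points in 1, black bars are medians and dashed lines mark 2-fold. The bar of the lipid genes lies at 0.34, that of the lipases and their regulators at -0.54 and that of the macrophage markers at 2.69.

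The ratios of these genes moved little under the alternatives of scaling, all of which align the overall signals of the arrays. A scaling to the hybridization controls, which were a median of 1.91-fold brighter in the Akita graft, was not tried. Apoe stayed over 2-fold higher under all 11 alternatives, with log2 ratios of 1.51 to 1.68. Pltp did so under the 10 that kept its brighter probe set, with 1.53 to 3.15, where the highest value is the median over its probe sets and includes the one with both signals below the floor. Lpl and Plin2 had a ratio below 1 under all 11, and Nr1h3 under 10 of 11, with 0.00 where both of its signals were raised to the 75th percentile. The floors, the filters and the dropping of probe sets left Apoe, Lpl and Plin2 at their values as deposited. The median over probe sets could not change Apoe or Plin2, which have 1 probe set each. For these genes such alternatives are therefore no check. The log2 ratio of Abca1 was 0.20 to 0.40 and that of Abcg1 0.47 to 1.49, all above 0, where 1.49 includes the probe set with a WT signal below the floor.

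**Figure D4:**
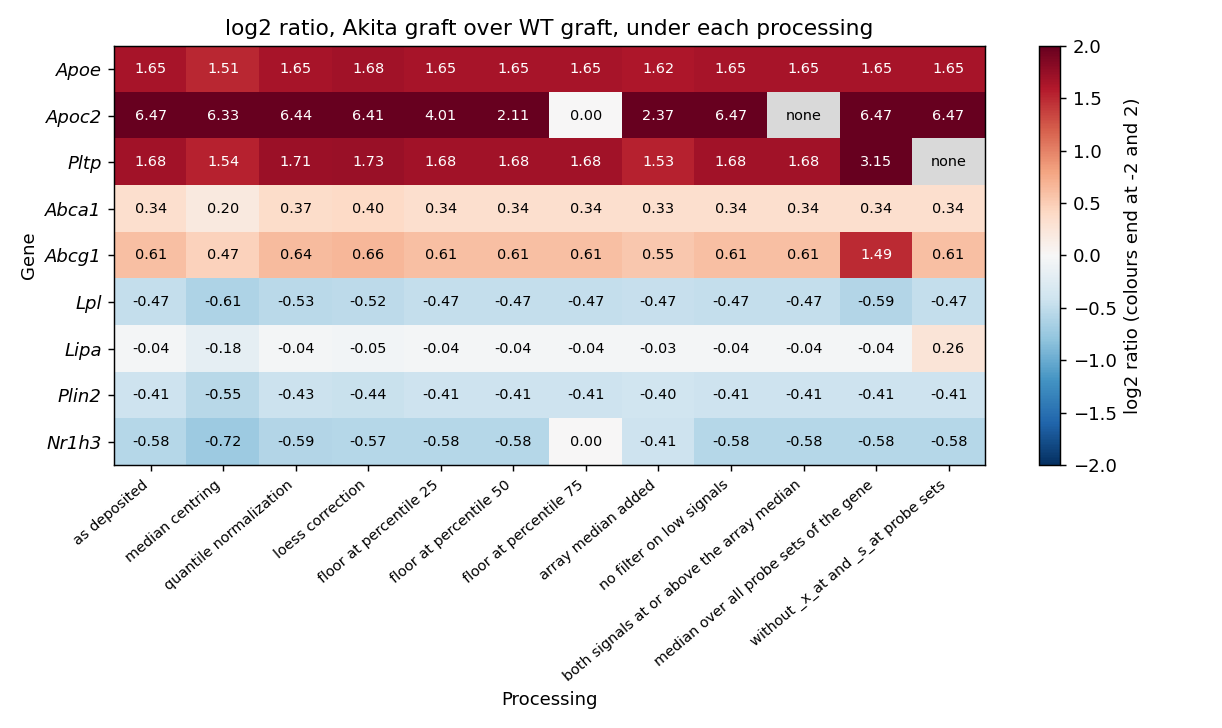
Log2 ratio of the Akita graft over the WT graft for the 9 measured genes (rows) with the signals as deposited and under 11 alternatives (columns), where colour runs from blue (lower) to red (higher) and grey marks no value. Apoe keeps values of 1.51 to 1.68, Apoc2 spans 0.00 to 6.47 with the treatment of low signals, and Lpl and Plin2 stay below 0.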

How the data were processed

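RNA of 2 islet graft samples was measured on 1 array each. The authors deposited MAS5 signal intensities on a linear scale, made with MAS5 without a stated version, and analysed them with the Subio Platform. Whether MAS5 scaled the arrays is not stated, and the trimmed mean signals were near equal, 494 for the Akita graft and 495 for the WT graft. Hybridization controls were a median of 1.91-fold brighter in the Akita graft. The 3' over 5' signal, a sign of RNA quality, was 1.76 for Gapdh in the Akita graft and 1.30 in the WT graft. For Actb it was 3.99 in the Akita graft and 3.54 in the WT graft. The number of arrays limits the precision.

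Gene names came from the platform annotation, and only probe sets with 1 symbol were used. The genes, lists and rule for named genes (all 10 genes, and of each list up to 3 with the largest log2 ratio of either sign among those with both signals at the floor and the 2 brightest) were chosen with earlier results of these data known. Genes named outside that rule (Adgre1, Mertk, Aif1, Adipoq, Lep, Apoc1, Lipg, Lcat, Cidea, Pecam1, Tek, Retn and Rxrg) were chosen after their values were seen. Lrp2, Cel, Cidec, Plin1 and Pnlip stood in 2 lists. Ratios were computed without further scaling, and the scripts were tested on simulated data. A fold with 1 low signal is a bound with signals raised to the array medians. Alternatives of scaling were quantile normalization, median centring and a loess fit (span 0.3). Low signals were raised to the 25th, 50th or 75th percentile, had the array median added, or were filtered otherwise. For each gene, the median over its probe sets was tried, as was dropping probe sets of several transcripts (suffix x or s). Limits of 1.5-fold and 5-fold were tried as well. The software was statsmodels 0.14.6, pandas 2.3.3, numpy 2.4.6 and matplotlib 3.10.9 in Python 3.11.15.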

Additional observations from a re-analysis of the deposited data

How the results depend on the processing

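The count of the 9 measured genes over 2-fold higher was 3 with the signals as deposited and 2 to 4 under the alternatives of scaling, low signals and probe sets. With a limit of 5-fold it was 1, and with 1.5-fold 4. The count over 2-fold lower was 0 under each. The median log2 ratio, 0.34, was 0.20 after median centring, 0.00 with signals raised to the 75th percentile, 0.19 without a filter and 0.15 with both signals at the floor. Median centring moved the median of all measured genes from -0.06 to -0.20. Apoc2 had a log2 ratio of 0.00 with the floor at the 75th percentile. Without probe sets that can bind several transcripts, Pltp was not measured, and Lipa had 0.26 in place of -0.04. With the median of all probe sets, Abcg1 had 1.49 and Pltp 3.15, but each includes a probe set with 1 or both signals below the floor, so neither is a measured fold. The median of the beta cell markers, -0.19, was 0.36 there. No paired analysis was possible because each condition had 1 array. No depth is known for arrays, and the low signals of Pparg, Apoc2 and the dimmer probe sets limit what can be read from them.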

Other observations

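Apoe and Apoc2 lie in a cluster of apolipoprotein genes on chromosome 7, in the order Apoc2, Apoc4, Apoc1 and Apoe in the RefSeq genes. The neighbours were looked at after the ratios of Apoe and Apoc2 had been seen, and no test was made. Apoc1 had a signal of 222 in the Akita graft, against 65.8 in the WT graft (at least 2.67-fold), and Apoc4 was below the floor in both with 10.6 and 8.30. On the side of Apoe, Tomm40, which encodes a pore of the outer mitochondrial membrane, was near equal at 477 and 445, and Nectin2, an adhesion molecule, had 368 against 201 (1.83-fold). Bcam, an adhesion molecule beyond Nectin2, had 152 against 40.1, at least 1.84-fold, and Cblc after it 257 against 276 (0.93). Beyond Apoc2, Clptm1 had 1519 against 2158 (0.70) and Relb 206 against 209 (0.99). Nectin2 and Bcam were thus also higher, but neither reached 2-fold as a ratio or a bound. Tomm40, Cblc and Relb were near equal, and Clptm1 was lower.

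Car3 had the lowest ratio among all the marker genes with both signals above the floor, at 4338 in the Akita graft and 24755 in the WT graft (0.18). Of the other adipocyte markers, Pck1, which kidney also expresses, was near equal. Retn, which encodes resistin, had 169 against 6.52 (at least 2.04-fold). Retn passed the floor only through the Akita graft and had to be higher for that reason. Only Car3 and Pck1 of this list reached the floor in both grafts, so no direction is given for the adipocyte markers. Npc1, of the lysosomal cholesterol list, and Hilpda, of the lipid droplet list, were picked after their ratios were seen, and these (3.21 and 3.31) were close to those of Apoe (3.14) and Pltp (3.20), with both signals of each above the floor.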
